A study of Mus musculus with 8 samples.

Results

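Genes of sterol synthesis and of its control by SREBP2, 7 in number, were followed across all 8 libraries of a study of mouse embryonic fibroblasts: Hmgcs1, Insig1, Sqle, Idi1, Fdft1, Cyp51 and Sc5d. They were chosen by name for their place in cholesterol synthesis or its control, with earlier results of these data known. Shares and medians of the 7 set beside those of all genes are therefore a description and no independent support. The genes were found in the count table by matching Ensembl identifiers to gene symbols. All 7 were present among 39017 identifiers, and all 7 were among the 18952 genes that passed the expression filter and were tested.

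The fibroblasts came from E13.5 embryos and were either labelled control or labelled Mettl3 knockout. Mettl3 is the catalytic subunit of the enzyme that places N6-methyladenosine (m6A) on mRNA. Per the labels' protocols, its deletion was triggered through a Cre recombinase with 500 nM 4-hydroxytamoxifen over 48 h, and the protein and the mark were examined after 7 days. Whether control cells carried the recombinase or received the drug, and what drives the recombinase, is not given in the sources used here. Both genotypes were sampled as total RNA from unstressed cells and as a granule-enriched fraction, centrifuged out of cells that had received sodium arsenite (500 µM, 30 min). Each combination of genotype and fraction has 2 biological replicates, which makes 4 groups. All granule libraries come from stressed cells and all total libraries from unstressed cells, so fraction and arsenite cannot be told apart. In these bulk libraries, fewer cells of a type and less RNA per cell cannot be told apart either.

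Cells make cholesterol from acetyl units through the mevalonate pathway, then through squalene and a long series of sterol steps. The transcription factor SREBP2 (encoded by Srebf2) is held in the endoplasmic reticulum by its escort Scap and the anchor proteins Insig1 and Insig2 while sterols are plentiful. When sterols fall, SREBP2 travels to the Golgi, is cut, and its released part enters the nucleus and activates genes of sterol synthesis and uptake. Insig1 is itself such a target, which closes a feedback loop.

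Libraries held 67257220 to 123508539 counts, and a single one of the 7 genes held 155 to 27197 counts in a library. Levels below are in CPM, which is counts relative to a library size that was scaled by the trimmed mean of M-values (TMM). Mettl3, as a check of the labels, stood at 24.9 to 25.4 CPM in control and 6.0 to 7.35 CPM in knockout cells in total RNA, and at 15.4 to 15.7 against 5.56 to 6.38 CPM in the granule fraction. Reads outside a deleted stretch would still be assigned to it. Of 9 fibroblast markers 7 averaged at least 5 CPM, with a summed level of 3380 to 7440 CPM. The 4 adipocyte markers and the 4 hepatocyte markers each averaged under 1 CPM, and their summed levels were at most 3.62 and 1.64 CPM. Leukocyte markers summed to 36.1 to 79.8 CPM and epithelial markers to 49.2 to 713 CPM, the latter mostly Krt18. Krt18 and Krt8 were higher in every granule library than in the total libraries of the same genotype, by log2 fold changes of 1.38 and 1.19 in control cells (edgeR adjusted p = 0.0567 and 0.112) and 3.13 and 3.65 in knockout cells (adjusted p = 0.00416 and 0.00429). The part of these markers in the results was not tested. The knockout total libraries stood apart from each other: over 10261 genes, replicates differed by a median absolute log2 ratio of 0.813 there, against 0.312 for control total, 0.101 for control granule and 0.134 for knockout granule. The signed log2 ratio of replicate 1 to replicate 2 followed the GC content of transcripts across genes (Spearman rho -0.734 in knockout total and 0.764 in control total libraries). This is a description over genes that are not independent. Mitochondrial genes held 7.6% of counts in knockout total replicate 1 and 6.16% and 8.81% in the knockout granule libraries, against 0.59% to 0.881% in the other 5, and the part of this in the results was not tested.

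The earliest enzyme among the 7 is Hmgcs1 (ENSMUSG00000093930, GRCm38 chromosome 13, 119690379 to 119708260), which makes HMG-CoA early in the mevalonate pathway. Idi1 (ENSMUSG00000058258, chromosome 13, 8885501 to 8892451) interconverts the isoprenoid building blocks. Fdft1 (ENSMUSG00000021273, chromosome 14, 63145150 to 63179578) is squalene synthase, the first step committed to sterols. Sqle (ENSMUSG00000022351, chromosome 15, 59315077 to 59331192) oxidises squalene and is a further control point. Cyp51 (ENSMUSG00000001467, chromosome 5, 4081145 to 4104746) removes a methyl group from lanosterol, and Sc5d (ENSMUSG00000032018, chromosome 9, 42251595 to 42264256) introduces a double bond near the end of the pathway. Insig1 (ENSMUSG00000045294, chromosome 5, 28071363 to 28078662) is the regulator among them. Exons of genes on the other strand cover 18.31% of the exonic bases of Fdft1, 12.12% of Hmgcs1, 9.215% of Idi1 and 3.76% of Cyp51. Whether counting used strand is not given in the sources used here, so those 4 counts are uncertain to that extent. Idi1 also has a related gene, Idi2, and how reads shared between them were assigned is not stated.

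Promoter sequence is shown for Hmgcs1 and Insig1, the pair that were called higher in the granule fraction of both genotypes, and for Sc5d, which shares a motif with Insig1. Windows of 300 bases (250 before and 50 after a RefSeq start, build GRCm38.p6) were held for 5 of the 7 genes, Hmgcs1, Insig1, Idi1, Cyp51 and Sc5d. The stretches printed run 5′ to 3′ along the gene's strand and stop before both the RefSeq and the GENCODE start. Capitals mark matches, on either strand, to TCACNCCAC (a form of the sterol regulatory element bound by SREBP2), CACGTG (an E-box) and CCAAT (the NF-Y box, ATTGG on the other strand).
Hmgcs1, chr13:119690101-119690350, plus strand: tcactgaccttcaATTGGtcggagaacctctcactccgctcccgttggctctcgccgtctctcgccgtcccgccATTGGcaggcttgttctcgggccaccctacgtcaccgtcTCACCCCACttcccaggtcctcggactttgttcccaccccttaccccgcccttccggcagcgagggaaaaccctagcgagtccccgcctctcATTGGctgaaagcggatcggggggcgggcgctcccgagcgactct
Insig1, chr5:28071162-28071362, plus strand: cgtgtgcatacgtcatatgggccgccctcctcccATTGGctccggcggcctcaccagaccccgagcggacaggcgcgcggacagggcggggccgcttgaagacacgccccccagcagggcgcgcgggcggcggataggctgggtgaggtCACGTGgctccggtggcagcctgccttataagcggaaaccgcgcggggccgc
Sc5d, chr9:42264301-42264550, minus strand: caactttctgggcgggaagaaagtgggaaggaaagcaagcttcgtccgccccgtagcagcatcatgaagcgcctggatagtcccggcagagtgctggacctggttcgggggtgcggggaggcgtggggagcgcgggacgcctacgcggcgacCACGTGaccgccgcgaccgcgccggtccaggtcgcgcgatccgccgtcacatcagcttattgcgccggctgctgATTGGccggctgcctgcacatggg

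In Hmgcs1 the TCACNCCAC match begins 137 bases before the RefSeq start and is flanked by CCAAT matches beginning 237, 176 and 45 bases before it. This 9-letter form was found in 1 of the 5 windows, against 1.24% of 32851 windows of the same length in the table. CACGTG was found in 2 of the 5, beginning 101 bases before the start of Insig1 and 98 before that of Sc5d, against 7.15% of all windows. CCAAT and GGGCGG (a GC box, not capitalised) were each found in 5 of the 5 windows, against 37.4% and 35.7% of all windows. These matches overlap with no other motif searched, and they describe letters only. Stretches of Idi1 and Cyp51 before both starts hold none of the 3 capitalised motifs and are not printed.

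Levels between the genes were compared per kilobase of exonic length. In control total RNA the order was Cyp51 (36.7 ± 6.9 CPM per kilobase, SD, n = 2), Fdft1 (22.5 ± 8.43), Insig1 (18.2 ± 2.46), Sqle (16.7 ± 1.92), Sc5d (7.34 ± 0.31), Hmgcs1 (4.05 ± 0.181) and Idi1 (0.944 ± 0.106). The libraries of Fdft1 (28.5 and 16.5) overlapped those of Insig1 (19.9 and 16.4) and Sqle (18.1 and 15.4), so the order of these 3 is within their spread, while the other neighbours did not overlap. In control granule libraries Insig1 came first (41.9 ± 1.55), ahead of Cyp51 (37.4 ± 0.838) and Sqle (29.2 ± 0.344), and Hmgcs1 (16.4 ± 1.5) and Fdft1 (16.1 ± 1.01) overlapped. In the knockout granule libraries Cyp51 (53.7 ± 3.32) was again first and Insig1 (34.6 ± 0.0286) second. Idi1 was lowest in all 4 groups, at 0.618 to 3.9 CPM per kilobase.

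**Figure D1:**
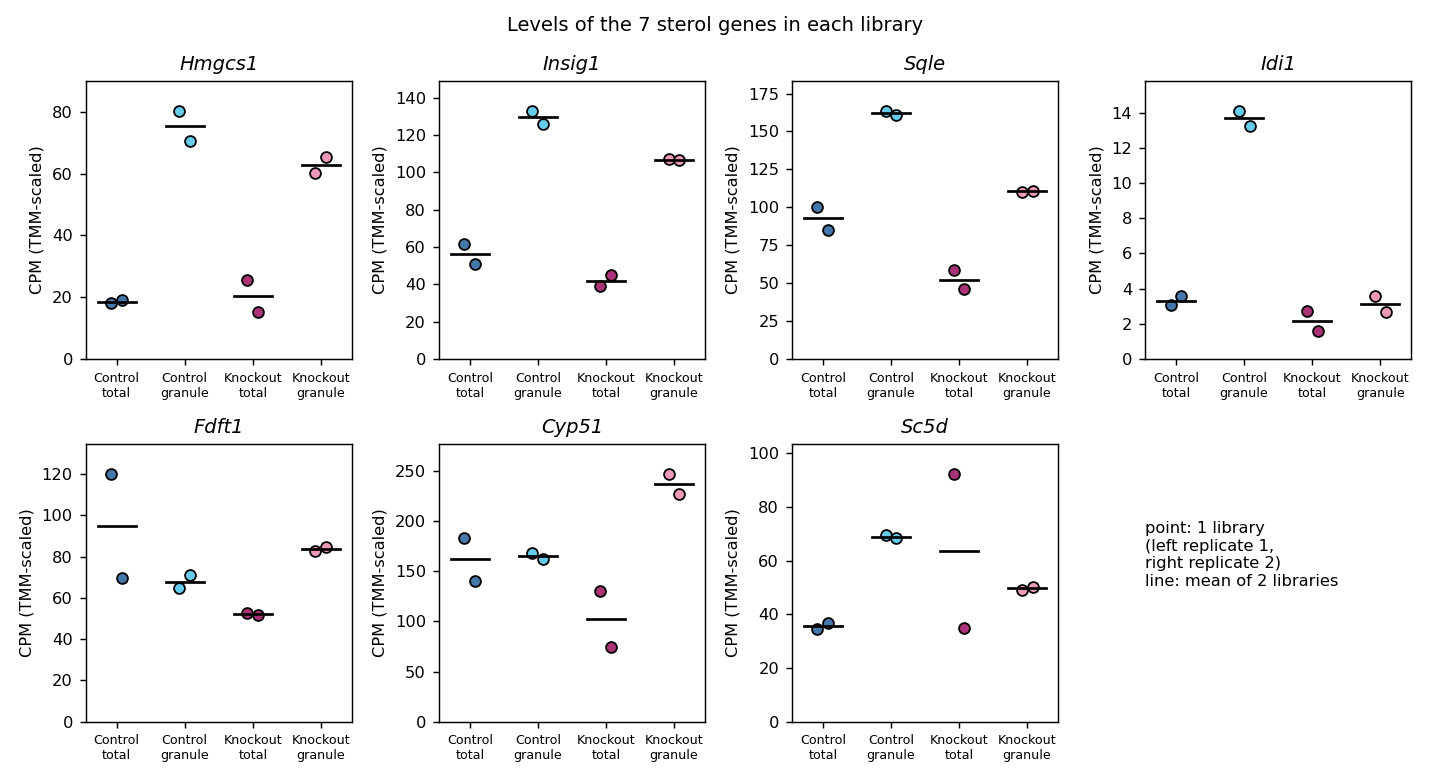
Level of each of the 7 genes in every library, in CPM on a linear axis that starts at 0; each point is 1 library and each line the mean of 2. Hmgcs1, Insig1 and Sqle lie higher in both granule groups than in either total group, Idi1 is high in control granule libraries alone, and knockout total replicate 1 stands at 92.4 CPM for Sc5d against 35.1 in its replicate.

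In control cells, 3 of the 7 genes rose in the granule fraction of arsenite-treated cells against total RNA of unstressed cells, and none fell. Idi1 and Hmgcs1 rose about 4-fold and Insig1 by 2.3-fold. Calls are at an adjusted p under 0.05 in edgeR's quasi-likelihood test with Benjamini-Hochberg adjustment over all genes tested. The background in this comparison was 10.1% of genes called, 5.89% higher and 4.17% lower. The median log2 fold change of the 7 was 0.95, against -0.06 over all genes.

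Hmgcs1 read 18.0 and 19.2 CPM in control total and 80.4 and 70.7 CPM in control granule libraries. Both granule libraries were high and the groups were far apart, with a log2 fold change of 2.02 (SE 0.31, edgeR adjusted p = 0.0121). Idi1 read 3.04 and 3.57 CPM against 14.1 and 13.2 CPM. Its log2 fold change was 2.05 (SE 0.35, edgeR adjusted p = 0.0163), again with no overlap. Insig1 read 61.6 and 50.9 CPM in total RNA and 133 and 126 CPM in granules, a log2 fold change of 1.2 (SE 0.25, edgeR adjusted p = 0.0252). Thus the transcripts of both an early enzyme of the pathway and the anchor protein were higher, in CPM, in the granule libraries. The ratio was 3.68 to 4.46 for Hmgcs1 and 2.05 to 2.62 for Insig1 over the 4 pairings of libraries.

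Sqle and Sc5d did not pass the test in the main fit, although neither overlapped between the groups. Sqle was called by DESeq2, with 12.4% of all genes. It was also called with a GC trend of each library removed, without and with a term for replicate number (20.2% and 16.4%). Sc5d was called without expression filter (13.2%), and both were called with only the groups compared (42.4%). Sqle read 100.4 and 85.3 CPM in total and 164 and 161 CPM in granule libraries (log2 fold change 0.81, SE 0.25, edgeR adjusted p = 0.075). For Sc5d the values were 34.6 and 36.8 CPM against 69.3 and 68.2 CPM (0.95, SE 0.42, adjusted p = 0.172). In all, 5 of the 7 had both granule libraries above both total libraries, against 35.2% of all genes, and 0 had both below, against 37.3%. Cyp51 and Fdft1 overlapped: Cyp51 read 184 and 141 CPM in total and 168 and 163 CPM in granule libraries, a log2 fold change of 0.03 (SE 0.31) whose sign turned with upper-quartile scaling and with library size alone. Fdft1 read 120.3 and 69.9 CPM in total and 64.9 and 70.9 CPM in granule libraries (-0.49, SE 0.3, adjusted p = 0.314).

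Calls in this comparison depend on which libraries inform the spread. Without either knockout total replicate, neither of which belongs to the comparison, 5 of the 7 were called (Hmgcs1, Insig1, Sqle, Idi1 and Sc5d), together with 40.6% of all genes without replicate 1 and 39.9% without replicate 2. Without any 1 of the 4 control libraries 0 of the 7 were called, with at most 0.373% of all genes. Without knockout granule replicate 1 the count was 1 (Hmgcs1) and without replicate 2 it was 2 (Hmgcs1 and Idi1), with 1.83% and 2.02% of all genes called.

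In knockout cells, 4 of the 7 genes rose in granule against total libraries: Hmgcs1, Insig1, Sqle and Cyp51, by 2.12- to 3.07-fold. None fell. The background was 17.6% of genes called, 9.17% higher and 8.47% lower, and the median log2 fold change of the 7 was 1.08 against 0.04 over all genes. Idi1 was not called in this genotype.

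Hmgcs1 read 25.5 and 15.3 CPM in knockout total and 60.2 and 65.3 CPM in knockout granule libraries, a log2 fold change of 1.62 (SE 0.31, edgeR adjusted p = 0.0129). Insig1 read 39.0 and 45.0 CPM in total and 107.0 and 106.8 CPM in granule libraries (1.35, SE 0.25, edgeR adjusted p = 0.0114). The 2 granule libraries of Insig1 were almost the same, and both lay above every total library of either genotype. Sqle, the squalene-oxidising enzyme, read 58.6 and 45.8 CPM in total and 110.0 and 111.0 CPM in granule libraries (1.08, SE 0.25, edgeR adjusted p = 0.0246). Cyp51, the lanosterol demethylase, read 130.4 and 74.4 CPM in total and 248 and 227 CPM in granule libraries (1.21, SE 0.32, edgeR adjusted p = 0.0375). Its knockout total libraries were far apart, so the ratio ran from 1.74 to 3.33 over the pairings.

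Fdft1 read 52.8 and 51.9 CPM in knockout total and 82.5 and 84.9 CPM in knockout granule libraries. The groups did not overlap but the gene was not called (log2 fold change 0.68, SE 0.3, edgeR adjusted p = 0.153). With it, 5 of the 7 had both granule libraries above both total libraries, against 31.5% of all genes, and 0 had both below, against 26.5%. Idi1 read 2.72 and 1.61 CPM against 3.58 and 2.69 CPM, which overlap (0.53, SE 0.34, adjusted p = 0.31). Sc5d read 92.4 and 35.1 CPM in total and 49.1 and 50.1 CPM in granule libraries, so the granule libraries lay between the total ones. Without knockout total replicate 1 its log2 fold change went from -0.36 to 0.49.

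Leaving out either knockout granule library left 0 of the 7 called, with 1.47% and 1.22% of all genes called. The 4 libraries of this comparison fitted on their own called 0 of the 7 and 0 of all genes. The count was 5 without knockout total replicate 1 (Idi1 added) or without replicate 2 (Sc5d and not Idi1 added), where 34.0% and 48.2% of all genes were called. It was 3 and 2 without control total replicate 1 and 2 (10.3% and 9.99% of all genes), and 1 and 0 without control granule replicate 1 and 2 (7.79% and 7.72%).

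**Figure D2:**
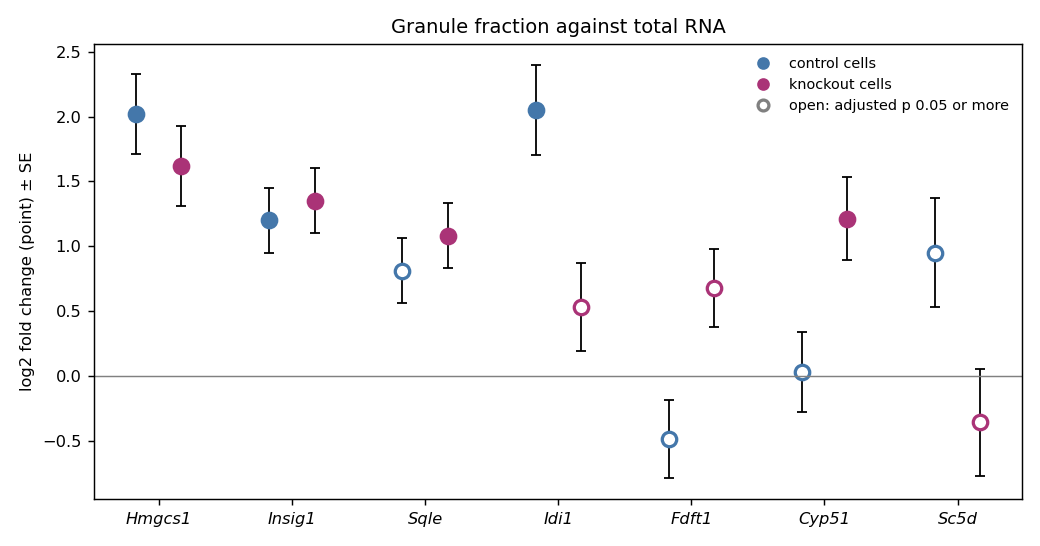
Log2 fold change of granule against total libraries for each gene, in control cells and in knockout cells, with the standard error of the edgeR fit as bars; filled points are called at an adjusted p under 0.05. In this main fit Hmgcs1 and Insig1 are called in both genotypes, and Idi1 in control cells (2.05) and not in knockout cells (0.53). Sqle and Cyp51 are called in it in knockout cells (1.08 and 1.21) and not in control cells (0.81 and 0.03).

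The change of the granule to total ratio with genotype was tested by an interaction term, and 0 of the 7 genes were called by edgeR, with 3 at an unadjusted p under 0.05. DESeq2 called 1 of the 7, Idi1, and 8.39% of all genes. The background was 0.517% of genes called (0.401% higher, 0.116% lower) and 25.8% at an unadjusted p under 0.05. In the main fit, genes called in a single genotype are thus not shown to differ between genotypes. Cyp51 was called in the interaction with the GC trend removed, without and with the replicate term (9.48% and 4.06% of all genes). Idi1 and Sc5d were called without expression filter (11.5% of all genes). Idi1 had the lowest interaction, -1.52 on the log2 scale (SE 0.48, edgeR adjusted p = 0.12): its granule and total means were 13.7 and 3.31 CPM in control cells and 3.13 and 2.17 CPM in knockout cells. Cyp51 (1.18, SE 0.45, adjusted p = 0.157) and Fdft1 (1.16, SE 0.42, adjusted p = 0.149) were the highest. Sc5d stood at -1.31 (SE 0.59), and Hmgcs1, Insig1 and Sqle lay between -0.4 and 0.28 with SE of 0.34 to 0.42. Without knockout total replicate 1 the fit called Idi1, Fdft1 and Cyp51, with 18.6% of all genes called. Without replicate 2 it called Hmgcs1, Idi1, Fdft1 and Sc5d, with 46.4% of all genes called. Idi1 and Fdft1 were called in both. Every fit that left out a library of another group called 0 of the 7 and 0 of all genes.

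In total RNA of unstressed cells, 0 of the 7 genes were called between knockout and control, by edgeR or by DESeq2, with 2 at an unadjusted p under 0.05 in edgeR (Sqle and Fdft1) and 3 in DESeq2. The edgeR background was 0.412% of genes called (0.274% higher, 0.137% lower) and 24.8% at an unadjusted p under 0.05. DESeq2 called 7.85% of 30351 genes, and its share at an unadjusted p under 0.05 is not given here. The median log2 fold change of the 7 was -0.61, against 0.02 over all genes. Insig1, Sqle, Idi1, Fdft1 and Cyp51 had both knockout libraries below both control libraries, 5 of 7 against 24.7% of all genes, and 0 had both above, against 24.4%.

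Sqle read 100.4 and 85.3 CPM in control and 58.6 and 45.8 CPM in knockout total libraries (log2 fold change -0.83, SE 0.25, edgeR adjusted p = 0.145). Fdft1, squalene synthase, read 120.3 and 69.9 CPM against 52.8 and 51.9 CPM (-0.86, SE 0.3, edgeR adjusted p = 0.16). For Fdft1 the spread lay in the control libraries and for Cyp51 in both groups, 184 and 141 CPM against 130.4 and 74.4 CPM (-0.66, SE 0.32, adjusted p = 0.231). Insig1 was at -0.42 and Idi1 at -0.61, with ranges given above. Hmgcs1 (0.14, SE 0.3) and Sc5d (0.84, SE 0.42) overlapped. Both were highest in knockout total replicate 1, without which Hmgcs1 stood at -0.28 and Sc5d at -0.02. Without that library Sqle and Cyp51 were called, with 5.52% of all genes. Without knockout total replicate 2 Hmgcs1, Sqle, Fdft1 and Sc5d were called, with 47.8% of all genes. Removing the GC trend of each library called Sqle and Idi1, with 4.07% of all genes.

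In the granule fraction, Idi1 fell in knockout cells and was the 1 gene called, against 9.45% of all genes called, 5.79% higher and 3.66% lower. It read 14.1 and 13.2 CPM in control granule and 3.58 and 2.69 CPM in knockout granule libraries, a log2 fold change of -2.12 (SE 0.35, edgeR adjusted p = 0.0139). Both knockout values lay far below both control values, at 0.19 to 0.27 of them over the pairings, and near the 3.04 and 3.57 CPM of control total RNA. The call of Idi1 was made by DESeq2, under each scaling and filter tried, with the GC trend removed and with the replicate block. It was lost when any 1 of the 4 granule libraries was left out. Those fits called 0 of all genes without a control granule library and 0.201% and 0.433% without a knockout one, and the log2 fold change of Idi1 in them was -1.94 to -2.4.

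The other 6 genes were not called in this comparison, although the groups of each did not overlap. Sqle (log2 fold change -0.55, SE 0.25), Sc5d (-0.47, SE 0.41), Insig1 (-0.28, SE 0.24) and Hmgcs1 (-0.27, SE 0.3) had both knockout libraries below both controls. With Idi1 these make 5 of 7, against 36.6% of all genes. Cyp51 (0.52, SE 0.32) and Fdft1 (0.3, SE 0.3) had both above, 2 of 7 against 40.4%. Replicates were close in this fraction, and a fit of these 4 libraries alone called 6 of the 7, leaving out Hmgcs1, and 57.3% of all genes. The median log2 fold change of the 7 was -0.28, against 0.08 over all genes.

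**Figure D3:**
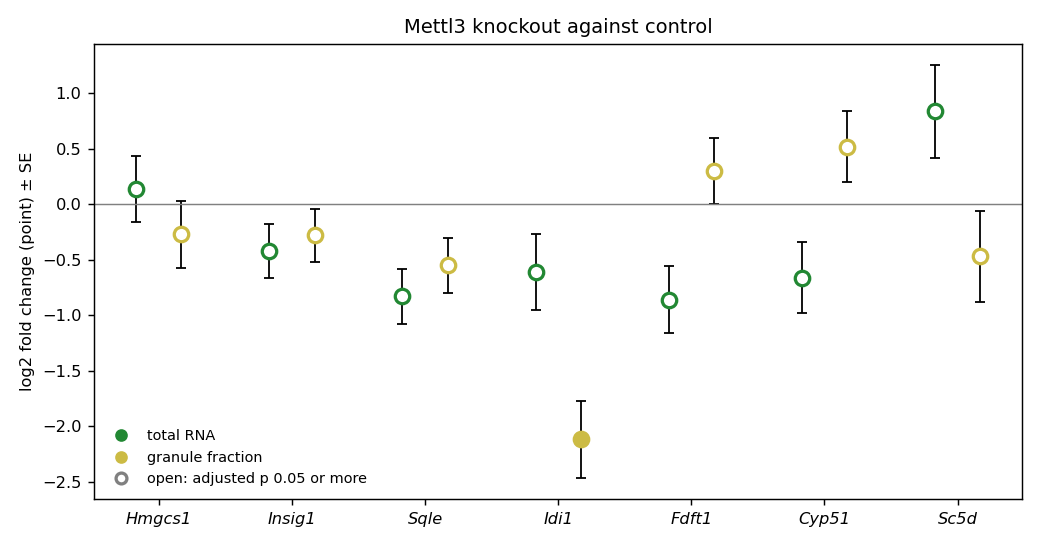
Log2 fold change of knockout against control for each gene, in total RNA and in the granule fraction, with the standard error of the edgeR fit as bars; filled points are called at an adjusted p under 0.05. Idi1 in the granule fraction, at -2.12, is the 1 filled point, and the values of the other genes lie between -0.86 and 0.84.

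Among 16 other enzymes of the pathway the median log2 fold change was 0.08 in control granules. There 1 was called higher and 0 lower, against 5.89% and 4.17% of all genes. In knockout granules 5 of the 16 rose and 0 fell, with a median of 0.64, against 9.17% of all genes called higher and 8.47% lower. The 5 that rose were Fdps (log2 fold change 2.36), Pmvk (1.98), Mvd (1.91), Mvk (1.88) and Acat2 (1.47). These enzymes act from the first condensation of acetyl units to farnesyl diphosphate. Fdps read 20.6 and 38.7 CPM in knockout total and 141 and 163 CPM in knockout granule libraries, against 287 and 158 CPM in control total. In total RNA it fell by 2.91 on the log2 scale in knockout cells (SE 0.42, edgeR adjusted p = 0.0397), the 1 call of the 16 there, against 0.412% of all genes. With the replicate block Fdps was not called there (edgeR adjusted p = 0.126), nor was any other gene. Transcripts of Fdps, Pmvk, Mvd and Mvk have a GC content of 54.49% to 59.58%, and those of Acat2 49.64%, against a median of 50.5% over genes tested and 41.86% to 51.78% for the 7 genes. With the GC trend removed the 5 log2 fold changes in knockout granules were 1.44 to 2.2, all called, with 32.5% of all genes called. With the replicate block Fdps, Pmvk and Acat2 were called there and Mvk and Mvd were not (edgeR adjusted p = 0.0682 and 0.0761), with 10.0% of all genes called. Without knockout total replicate 1 the log2 fold changes of Fdps, Pmvk, Mvd, Mvk and Acat2 in knockout granules were 1.97, 1.59, 1.32, 1.28 and 1.36. A gene on the same strand covers 26.71% of the exonic bases of Fdps, so its count is uncertain. In the granule fraction Lbr, which carries a sterol reductase domain, fell in knockout cells (-1.2, SE 0.29, edgeR adjusted p = 0.0405). It was 1 of 16, against 3.66% of all genes called lower, and was not called with the replicate block (edgeR adjusted p = 0.0881).

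Of 12 genes of SREBP control, uptake and intracellular sterol transport, Stard4, a cytosolic sterol carrier, changed most like the granule-high members. It read 19.4 and 20.7 CPM in control total, 94.7 and 91.1 CPM in control granule, 18.3 and 17.6 CPM in knockout total and 81.3 and 94.7 CPM in knockout granule libraries. The groups were far apart in both genotypes, with log2 fold changes of 2.21 (SE 0.25, edgeR adjusted p = 0.00503) and 2.29 (SE 0.25, adjusted p = 0.00305). Npc2, which hands cholesterol on inside lysosomes, fell in control granules (-1.13, SE 0.29, edgeR adjusted p = 0.0463), and its membrane partner Npc1 fell in knockout granules (-1.59, SE 0.24, edgeR adjusted p = 0.00648). In each genotype 1 of the 12 was called lower, against 4.17% of all genes in control and 8.47% in knockout cells. Between genotypes 0 of the 12 were called in total RNA by edgeR, with 4 at an unadjusted p under 0.05, and in granules Npc2 rose (1.45, SE 0.29, edgeR adjusted p = 0.0242).

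In the main edgeR fit, with all libraries and no GC correction, the regulators Srebf2, Scap and Insig2 were not called in any comparison. Srebf2 read 479 and 320 CPM in control total, 412 and 369 CPM in control granule, 76.7 and 167 CPM in knockout total and 287 and 263 CPM in knockout granule libraries. Knockout total libraries were the lowest, with a log2 fold change of -1.72 against control (SE 0.4, edgeR adjusted p = 0.113). With the GC trend removed Srebf2 was called there (-1.16, SE 0.2, edgeR adjusted p = 0.0223), with 4.07% of all genes called. It was then also called in knockout granules (0.79, adjusted p = 0.0177, 32.5% of all genes) and between genotypes in granules (-0.73, adjusted p = 0.0313, 24.0%). With the replicate block it was called in none of these comparisons (edgeR adjusted p = 0.235, 0.122 and 0.499), with 0.0%, 10.0% and 3.54% of all genes called. Without knockout total replicate 1 or 2, the log2 fold change of Srebf2 in total RNA was -1.26 and -2.27. Scap spanned 59.2 to 221 CPM and was lowest in knockout total replicate 1, with 186 CPM in the other replicate. Between genotypes in total RNA, Scap stood at a log2 fold change of -0.06 without that replicate and -1.61 without the other. Insig2, the anchor that is not induced in the same way as Insig1, lay between 17.3 and 36.5 CPM. Its log2 fold change was 0.4 (SE 0.26) in control and 0.36 (SE 0.26) in knockout granules. Knockout against control, it was -0.45 (SE 0.26, edgeR adjusted p = 0.307) in total RNA and -0.49 (SE 0.26, edgeR adjusted p = 0.262) in granules.

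Of 10 genes of sterol efflux and oxysterol metabolism, Ch25h, which makes 25-hydroxycholesterol, an inhibitor of SREBP2 processing, was the 1 gene called. It read 2.46 and 3.34 CPM in control total, 0.126 and 0.237 CPM in control granule, 7.35 and 17.8 CPM in knockout total and 3.34 and 1.4 CPM in knockout granule libraries. It fell in control granules (log2 fold change -3.98, SE 0.65, edgeR adjusted p = 0.0153) and in knockout granules (-2.41, SE 0.58, edgeR adjusted p = 0.029), and was higher in knockout than in control granules (3.69, SE 0.65, edgeR adjusted p = 0.0173). Of 11 genes of fatty acid synthesis, which SREBP1 mainly controls, Elovl6 was the 1 gene called in granule against total libraries. This fatty acid elongase read 12.1 and 12.8 CPM in control total and 88.9 and 85.4 CPM in control granule libraries (2.81, SE 0.34, edgeR adjusted p = 0.00695), and in knockout cells its log2 fold change was 2.08 (SE 0.33, adjusted p = 0.00747). Knockout against control in granules, Acly (-1.4, SE 0.24) and Scd2 (-1.19, SE 0.28) fell, with edgeR adjusted p of 0.0162 and 0.0393, and all 11 genes of the list had both knockout granule libraries below both control ones, against 36.6% of all genes.

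**Figure D4:**
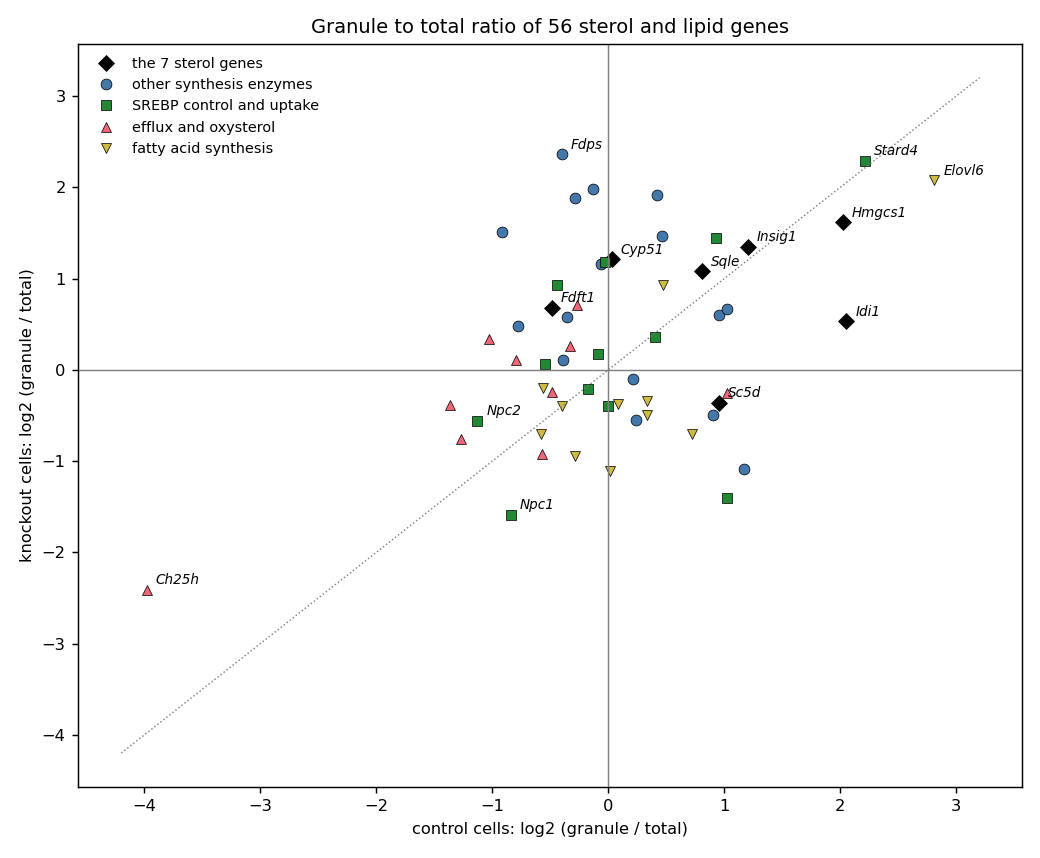
Log2 fold change of granule against total libraries in control cells (horizontal) and in knockout cells (vertical) for the 56 genes of the 5 lists; the dotted line marks equal values. Stard4, Elovl6, Hmgcs1, Insig1 and Sqle lie toward the upper right, Ch25h at the lower left (-3.98 and -2.41), and Fdps at -0.4 in control and 2.36 in knockout cells.

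What the 7 genes share was described over the 8 libraries. Each gene's log2 CPM was correlated with the mean of the other 6, as a description over libraries that share their group structure. Pearson's r was 0.94 for Sqle, 0.9 for Insig1, 0.88 for Hmgcs1, 0.73 for Idi1, 0.65 for Cyp51, 0.38 for Sc5d and 0.22 for Fdft1. Within pairs, Hmgcs1 and Insig1 were the most alike (0.92) and Sc5d and Fdft1 the least (-0.42). The mean profile, centred per gene on the log2 scale, was 0.69 and 0.65 in control granule, 0.28 and 0.24 in knockout granule, -0.19 and -0.37 in control total, and -0.38 and -0.93 in knockout total libraries. Among 9897 other protein-coding genes averaging 5 CPM or more, those whose log2 CPM correlated best with this profile were Khdrbs3 (Pearson r 0.982), Zhx3 (0.981), Plk2 (0.977) and Hsd17b7 (0.976), over 8 libraries. Hsd17b7 is itself an enzyme of late sterol synthesis and read 6.99 ± 0.249 CPM (SD, n = 2) in total RNA and 14.2 ± 0.48 CPM in granules of control cells, against 5.77 ± 1.63 and 9.18 ± 0.397 CPM in knockout cells.

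The transcripts differ in features linked to m6A, which is placed mostly at DRACH sites, of which GGACT is a common form. GGACT was counted on the sense strand of the longest protein-coding GENCODE M21 transcript of each gene. Idi1 has 0 in 3027 nt, and 8.16% of 15389 protein-coding genes tested also have none. Fdft1 has 6 in 3698 nt (1.62 per kilobase), Insig1 3 in 2697 nt (1.11), Sqle 3 in 2758 nt (1.09), Sc5d 3 in 4787 nt (0.627), Hmgcs1 2 in 3464 nt (0.577) and Cyp51 2 in 3931 nt (0.509). The median over genes tested was 1.06 per kilobase, with quartiles of 0.642 and 1.54, so Idi1, Cyp51, Hmgcs1 and Sc5d lie under the lower quartile and Fdft1 above the upper one. The 3 matches of Insig1 and the 3 of Sc5d lie after the coding part, and the 2 of Hmgcs1 and the 2 of Cyp51 within it. The longest internal exon has 809 nt in Fdft1 and 458 nt in Hmgcs1, both above the upper quartile of 318 nt, and 167 to 253 nt in the other 5. A match of letters is no measurement of the mark, and no m6A map was used here.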

How the data were processed

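Per the labels, poly(A) RNA of 8 libraries was sequenced on an Illumina HiSeq instrument. The authors deposited 1 table of raw counts per Ensembl identifier, not pooled. Per the submitters' processing notes, STAR and DESeq2 and the builds GRCm38 and mm10 were named, with no versions. Counting program and strand setting are not given in the sources used here. Of 39017 identifiers, 37693 matched GENCODE M21 (GRCm38), and the others held 0.167% to 0.221% of a library's counts.

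All 8 libraries were fitted together in edgeR 4.0.16 (R 4.3.3; quasi-likelihood, robust, TMM scaling, its expression filter, 4 group means), and p-values were adjusted over 18952 genes. DESeq2 1.42.0 was an alternative. Standard errors come from the F statistic. Other alternatives changed the scaling, filter, GC trend, samples fitted and libraries kept. The fit was also run on simulated counts that gave all groups the same spread. That run does not show how the fit handles the unequal spread of these libraries. The main fit did not pair samples by replicate number. Correlations of replicate differences between groups ran from -0.254 to 0.0954 over 18952 genes. Such differences followed GC content in the total libraries, so these correlations cannot show whether the numbers pair the samples.

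The genes and lists were chosen with earlier results of these data known. Per comparison, the called genes with the 3 highest and 3 lowest log2 fold changes of each list are named, with the 7 genes, Srebf2, Scap and Insig2 always named. Some genes that this rule names are not reported here. The 5 genes most like the 7 were those with the highest Pearson correlation over libraries. Precision is limited by 2 libraries per group; 3 counts correspond to 0.0264 to 0.0441 CPM.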

Additional observations from a re-analysis of the deposited data

How the results depend on the processing

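Numbers of called genes depended on the settings far more than fold changes did. With 1 library left out, the 7 genes called ranged from 0 to 5 in control granule against total, 0 to 5 in knockout granule against total, 0 to 4 for knockout against control in total RNA, 0 to 4 in granules and 0 to 4 in the difference between genotypes. The 49 other listed genes ranged from 0 to 21 (5 with all libraries), 1 to 35 (10), 0 to 33 (1), 0 to 27 (5) and 0 to 34 (0). Leaving out a library leaves an arm with 1 sample, assumed to vary like the others. In every comparison, granules between genotypes included, the upper end for the 7 came from a fit without a knockout total replicate. Among these fits, the share of all genes called was also highest without a knockout total replicate. The ranges therefore describe the fits more than the listed genes. A fit of only the groups compared called 5 of the 7 in control granules (42.4% of all genes), 0 in knockout granules (0 of all genes) and 6 in granules between genotypes (57.3% of all genes). GC trend removal called 2 in total RNA (4.07% of all genes) and 1 in the difference between genotypes (9.48%). Together with the replicate block it called 0 in total RNA (1.9%) and 1 in the difference (4.06%). In that difference no expression filter called 2 (11.5% of all genes) and DESeq2 1 (8.39%). The replicate block gave 2, 3, 0, 1 and 0 of the 7 in the 5 comparisons. Of all genes it called 3.07%, 10.0%, 0.0%, 3.54% and 0.0%. Among the 7 it lost Insig1 in control and Sqle in knockout granules. The crossed block, chosen after seeing the data, gave 0 in total RNA, where it called 94 of all genes against 78 without a block.

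Calls of the 49 other genes follow, with the share of all genes called in brackets. In control granules 3 were called by library size alone (8.85%), 8 without filter (13.2%) and 3 with the block (3.07%). With the GC trend removed 9 were called without the block (20.2%) and 8 with it (16.4%). With only the groups compared 19 were called (42.4%), and 11 by DESeq2 (12.4%). In knockout granules these were 17 without filter (17%), 6 with the block (10.0%), and 21 (32.5%) and 19 (28.2%) for GC. They were 0 with only the groups compared (0.0%) and 16 by DESeq2 (15.5%). In total RNA between genotypes they were 0 by library size alone (0.195%), 16 without filter (11.2%) and 0 with the block (0.0%). They were 11 (4.07%) and 5 (1.9%) for GC, 0 with only the groups compared (0.0%) and 17 by DESeq2 (7.85%). In granules between genotypes they were 3 by library size alone (8.21%), 9 without filter (11.2%) and 2 with a mean of at least 5 CPM (7.86%). They were 2 with the block (3.54%), and 16 (24.0%) and 14 (19.8%) for GC. With only the groups compared they were 36 (57.3%), and 8 by DESeq2 (9.89%). In the difference between genotypes they were 8 without filter (11.5%), 7 (9.48%) and 3 (4.06%) for GC, and 7 by DESeq2 (8.39%).

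No called fold change of the 7 changed sign. Uncalled ones did so in 17 fits. Cyp51 in control granules stood at -0.21 with upper-quartile scaling, -0.09 by library size alone, -0.1 at a mean of at least 5 CPM, and -0.29 and -0.26 with the GC trend removed without and with the block (-0.11 to 0.24 with 1 library left out). Hmgcs1 between genotypes in total RNA stood at -0.51 and -0.5 with the GC trend removed (-0.28 to 0.56 with 1 library left out), and its difference between genotypes at 0.37 in both. Insig1 in that difference stood at -0.02 without filter (-0.02 to 0.15 with 1 library left out). With 1 library left out Sc5d ranged from -1.02 to 0.49 in knockout granules and -0.02 to 1.48 in total RNA, and Sqle from -0.06 to 0.45 in the difference. The cause was not tested. Upper-quartile scaling moved the median of all genes from -0.06 to -0.29 in control granules, from 0.08 to 0.23 in granules between genotypes and from 0.09 to 0.33 in the difference, and library size alone moved them to -0.19, 0.17 and 0.28. By Spearman correlation, 0 of the 5 genes most like the 7 were among the top 5.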
